A study of Mus musculus with 7 samples.

Results

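Costimulatory and checkpoint molecules were followed at the RNA level in splenic memory B cells (MBCs) and plasma cells (PCs) through 9 genes chosen by name: Cd86, Cd83, Cd274 and Icosl, which B cells display to T cells, and the receptors Cd28, Ctla4, Pdcd1, Btla and Lag3. All 9 were found by Ensembl identifier among the 48795 genes of the deposited table, and 8 of them were among the 11573 genes that passed the filter on low values (at least 1 TPM, a length-corrected abundance scaled to a fixed library total, in at least 3 libraries). Pdcd1 did not pass. Cd28 and Ctla4 passed through their PC libraries.

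The 7 bulk RNA sequencing libraries came from splenocytes of C57BL/6 wild type females, 8 to 12 weeks old, taken on day 10 after intravenous sheep red blood cells, an antigen that needs T cell help. Beads against CD43 were used to enrich B cells before sorting. The 3 MBC libraries held cells positive for B220, CD38 and CD273 and negative for CD138 and IgD, and the 4 PC libraries held B220-low, CD138-positive, IgD-negative cells. CD273 is PD-L2, the product of Pdcd1lg2 and a ligand of PD-1, so the MBC gate itself used a checkpoint ligand. Neither group was from a transgenic or gene-targeted mouse, and the labels do not say whether libraries of a group came from separate animals, so p-values measure the spread between these samples, which may be technical.

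T cells need a signal from the antigen receptor and another from CD28, which binds CD80 and CD86 on antigen-presenting cells. CTLA-4 binds the same ligands and opposes CD28, while ICOS with ICOS ligand supports T cell help to B cells. PD-1, BTLA and LAG-3 are inhibitory receptors, and plasma cells are known to carry CD28 as well.

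Values are scaled TPM unless stated otherwise: the deposited TPM of each library divided by a library factor, because immunoglobulin transcripts took 1.65 to 3.16% of TPM in MBCs and 49.4 to 55.9% in PCs. TPM is per transcript length, so levels may be set beside each other between genes. Fold changes are PC minus MBC on log2(scaled TPM + 1), fitted with limma over all tested genes, and a gene was called when its adjusted p was below 0.05 and its fold change was 1 or more in size on this scale. The scale understates the change of low genes. At 1 deposited TPM a transcript of 1 kb stood for an estimated 6.15 to 11.7 reads in MBC libraries and 9.21 to 16.1 reads in PC libraries. The floor of 3 reads lay between 0.257 and 0.488 TPM in MBCs and between 0.187 and 0.326 TPM in PCs, and it covers counting error only.

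The labels were checked against fixed marker lists: 7 of 7 plasma cell markers were called higher in PCs, and 5 of 7 B cell markers were called lower. The library labelled MBC replicate 3 stood apart. Its Cd38 level, a transcript of the MBC gate, was 6.77 scaled TPM, against 130.3 and 185.7 in MBC replicates 1 and 2. Its 7 germinal center markers summed to 894 scaled TPM, against 273 and 300 (299.8) in the other MBC libraries and 252 to 342 in PCs. Pearson's r of its log2 values, taken across the tested genes (not independent of each other), was 0.700 to 0.777 with the PC libraries. Its r was 0.681 and 0.687 with MBC replicates 1 and 2, which had an r of 0.675 with each other. Those 2 libraries were also the shallowest, so these values cannot place the profile of MBC replicate 3 nearer to either group. Results that rest on MBC replicate 3 are given with and without it. The sample titles carry codes with 2 prefixes whose meaning the labels do not give. MBC replicates 1 and 2 and PC replicates 1 to 3 share the more frequent prefix, and the other prefix holds 1 library per group. Each MBC library also shares its full code with 1 PC library (replicates 1, 3 and 4), and PC replicate 2 has a code of its own.

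Several of the genes lie side by side. On GRCm38.p6 (RefSeq), Cd28 (ENSMUSG00000026012) spans chromosome 1, 60746388 to 60773359, followed by Ctla4 at 60909025 to 60915832 and Icos at 60960773 to 61000322, with 0 protein-coding genes between neighbours. Pdcd1 is on the same chromosome at 94038305 to 94052553. Cd86 (36568956 to 36666158) and Btla (45223705 to 45252895) are on chromosome 16, with Cd80 at 38457430 to 38495958 and Tigit at 43626137 to 43665125. Cd274 on chromosome 19 (29362107 to 29388095) is followed by Pdcd1lg2 (29410919 to 29472927). Cd83 is on chromosome 13 (43785112 to 43803133), Icosl on chromosome 10 (78069368 to 78079525) and Lag3 on chromosome 6 (124904359 to 124912434).

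Promoter windows, from 250 bases before to 50 bases after an annotated start, matched 5 members (Btla, Cd274, Ctla4, Icosl and Pdcd1) in RefSeq for GRCm38.p6. The windows of Btla and Cd274 lie inside the gene spans given above, so their start is not the first base of the span. Those of 3 members that were called are printed 5′ to 3′ on the plus strand, because they put a receptor that was higher in PCs beside a ligand and a receptor that were lower. Capitals mark a match to CAGCTG, the E protein letters, and the positions are chr1:60908775-60909074 for Ctla4, chr10:78069118-78069417 for Icosl and chr16:45224087-45224386 for Btla.
Ctla4: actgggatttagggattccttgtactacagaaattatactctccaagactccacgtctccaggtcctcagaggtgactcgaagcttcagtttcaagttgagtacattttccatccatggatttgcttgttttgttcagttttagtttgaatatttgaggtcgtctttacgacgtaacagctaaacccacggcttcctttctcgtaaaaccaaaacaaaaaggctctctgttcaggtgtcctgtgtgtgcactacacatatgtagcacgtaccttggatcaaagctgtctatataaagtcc
Icosl: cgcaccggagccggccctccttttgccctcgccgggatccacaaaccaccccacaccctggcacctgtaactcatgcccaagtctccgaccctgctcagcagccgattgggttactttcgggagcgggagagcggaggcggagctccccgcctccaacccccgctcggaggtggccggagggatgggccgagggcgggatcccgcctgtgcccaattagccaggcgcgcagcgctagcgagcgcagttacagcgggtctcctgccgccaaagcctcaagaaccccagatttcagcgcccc
Btla: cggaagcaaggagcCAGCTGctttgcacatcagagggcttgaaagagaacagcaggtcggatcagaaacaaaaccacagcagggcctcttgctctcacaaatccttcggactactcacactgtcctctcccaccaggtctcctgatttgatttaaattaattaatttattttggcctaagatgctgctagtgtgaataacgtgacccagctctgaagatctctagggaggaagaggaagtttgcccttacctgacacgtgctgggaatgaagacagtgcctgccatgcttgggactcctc
The bases G and C made up 42% of the Ctla4 window, 68% of the Icosl window and 49% of the Btla window. Both strands were searched for an NF-kappaB motif (GGG and TTTCC with any 2 bases between), a PU.1 with IRF motif (GGAA and GAAA with any 2 bases between), an IRF motif (GAAA and GAAA with any 2 bases between), GTGAAAG (the Blimp-1 core) and CAGCTG, which occurred in 1.63, 2.72, 3.44, 4.24 and 16.3% of all 32851 windows of this length. The PU.1 with IRF and IRF letters can overlap each other. Btla held CAGCTG beginning at base -236 from the start used for its window. Pdcd1 held the PU.1 with IRF letters on the minus strand of its window at base -28. The windows of Ctla4, Icosl and Cd274 held none of the 5, which says only that these letters are not there.

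Molecules displayed to T cells were mostly lower in PCs. Of the 8 tested members, 4 were called lower in PCs (Cd86, Cd83, Icosl and Btla), where 2.14% of all tested genes were, and 2 were called higher (Cd28 and Ctla4), where 6.41% of all tested genes were. The groups did not overlap in 6 of the 8, against 21.7% of all tested genes. The median log2 fold change was -0.98 over the 8 and 0.14 over all tested genes. The members were chosen with earlier results of these data known, and Cd28 and Ctla4 passed the filter through their PC libraries. These shares are therefore a description and not a test. With TPM as deposited the median of all tested genes was -0.91, and 472 genes were called higher and 3018 lower in place of 742 and 248.

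**Figure D1:**
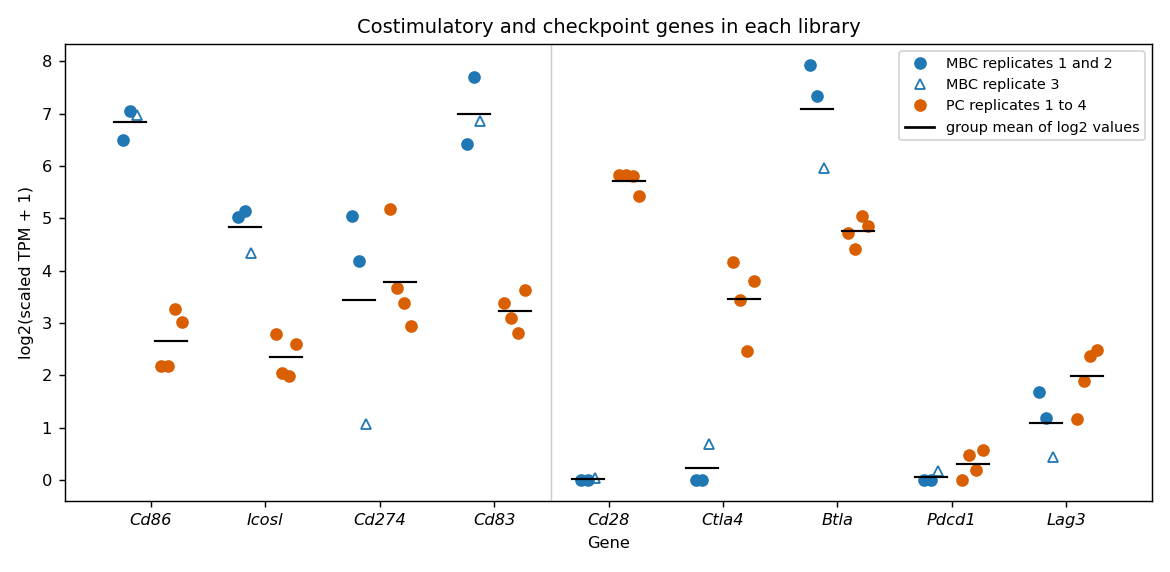
Level of the 9 genes in each of the 7 libraries, as log2(scaled TPM + 1) on the vertical axis. Each point is 1 library, the open triangle is MBC replicate 3, and the bar is the group mean of the log2 values. Cd86, Cd83, Icosl and Btla sit higher in all 3 MBC libraries than in any PC library, and Cd28 and Ctla4 sit higher in all 4 PC libraries.

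Cd86 encodes B7-2, a ligand of CD28 and CTLA-4 that rises on activated B cells. MBC replicates 1 to 3 held 89.4, 133 and 126 scaled TPM of it, and PC replicates 1 to 4 held 3.51, 3.55, 8.59 and 7.07. Every MBC library was far above every PC library, and within PCs replicates 1 and 2 were the lower pair. The MBC mean of 116 ± 23.2 (SD, n = 3) was 20.4-fold the PC mean of 5.68 ± 2.56 (SD, n = 4). The log2 fold change was -4.19 (SE 0.42, limma adjusted p = 0.000274) and -4.10 without MBC replicate 3 (limma adjusted p = 0.0012). PC levels were low but above the floor.

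Cd83 encodes a surface protein of activated B cells and dendritic cells that keeps CD86 and MHC class II on the surface. Its levels were 85.1, 207 and 115 scaled TPM in the MBC libraries and 9.45, 7.57, 6.04 and 11.4 in the PC libraries. MBC replicate 2 was the highest, and the groups were well separated. The mean was 135.5 ± 63.4 (SD, n = 3) in MBCs, 15.7-fold that of 8.62 ± 2.34 (SD, n = 4) in PCs, and the log2 fold change was -3.76 (SE 0.42, limma adjusted p = 0.00046).

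Icosl encodes the ligand of ICOS. It was listed at 31.5, 34.1 and 19.3 scaled TPM in MBCs and at 5.90, 3.12, 2.99 and 5.06 in PCs. The lowest MBC library, replicate 3, was still above the highest PC library. The MBC mean of 28.3 ± 7.88 (SD, n = 3) was 6.63-fold the PC mean of 4.27 ± 1.44 (SD, n = 4), and the log2 fold change was -2.48 (SE 0.46, limma adjusted p = 0.00882). With the title code as a block it was -2.37 and not called (limma adjusted p = 0.0841).

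Cd274 encodes PD-L1, a ligand of PD-1, and showed no such separation. Its MBC levels were 32.1, 17.1 and 1.10 scaled TPM, and its PC levels were 35.05, 11.8, 9.41 and 6.68. The groups overlapped, with MBC replicate 3 the lowest of all libraries and PC replicate 1 the highest. The log2 fold change was 0.36 (95% interval -1.71 to 2.43, limma adjusted p = 0.846). It was -0.82 without MBC replicate 3, -0.08 without PC replicate 1, -0.77 with TPM as deposited and -0.54 within the more frequent title prefix, so its sign was not fixed.

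The 3 ligands of the B7 type among the members (Cd86, Icosl and Cd274) summed to 153, 184 and 146 scaled TPM in the MBC libraries. In the PC libraries the sum was 44.5, 18.5, 21.0 and 18.8. The makeup differed too: the ratio of Cd86 to Icosl was 2.84, 3.89 and 6.5 in MBCs and 0.595, 1.14, 2.87 and 1.40 in PCs, and the lowest MBC ratio lay just below the highest PC ratio. In PC replicate 1 most of the sum was Cd274.

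Myeloid and dendritic cells also express Cd86 and Cd83, so 14 of their markers were examined. They summed to 19.3, 40.1 and 8.69 scaled TPM in MBCs and to between 7.20 and 12.9 in PCs, with 5, 7 and 5 of the 14 at 0 in the MBC libraries and 2 to 5 at 0 in the PC libraries. Of the 14, 4 were tested and 0 were called. Cd86 stood at 89.4, 133 and 126 scaled TPM in the same MBC libraries. The part of myeloid and dendritic cells in the Cd86 and Cd83 results was not tested.

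**Figure D2:**
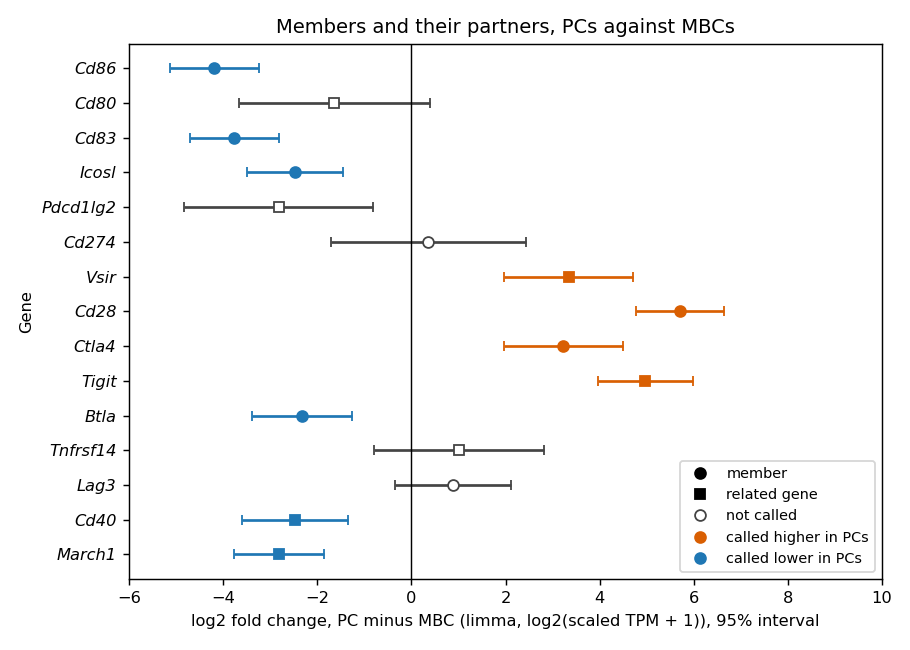
Log2 fold change with its 95% interval on the horizontal axis for 15 genes on the vertical axis. Circles are members, squares are related genes, open symbols were not called, orange was called higher and blue lower in PCs. Cd86 lies farthest to the left at -4.19 and Cd28 farthest to the right at 5.71.

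The receptors moved in both directions. Cd28, the costimulatory receptor known mainly from T cells, had 0 scaled TPM in both MBC replicates 1 and 2, and 0.029 in replicate 3, all under the floor, so no ratio of means is given. In PC replicates 1 to 4 it stood at 55.6, 55.7, 55.2 and 41.9 scaled TPM, with a mean of 52.1 ± 6.80 (SD, n = 4). PC replicates 1 to 3 were close together and replicate 4 lay well below them, and Cd28 had the highest level of the 9 genes there. The log2 fold change was 5.71 (SE 0.42, limma adjusted p = 5.56e-05). Because the MBC libraries were under the floor, this value moves with the pseudocount, from 3.5 at a pseudocount of 5 to 8.89 at 0.1.

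Ctla4, the inhibitory receptor that shares the ligands of CD28, was listed at 0, 0 and 0.614 scaled TPM in the MBC libraries, where only replicate 3 was over the floor. PC levels were 16.9, 9.85, 4.49 and 12.9 scaled TPM, with a mean of 11.0 ± 5.21 (SD, n = 4). All PC libraries were above all MBC libraries, but they were spread more widely than for Cd28, and the ratio of Cd28 to Ctla4 was 3.30, 5.65, 12.3 and 3.25. The log2 fold change was 3.23 (SE 0.57, limma adjusted p = 0.00666), and between 1.56 and 5.70 over pseudocounts of 5 and 0.1. Together Cd28 and Ctla4 summed to 0, 0 and 0.643 scaled TPM in MBCs and to 72.5, 65.5, 59.7 and 54.8 in PCs.

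Btla encodes an inhibitory receptor of B and T cells that binds HVEM. Its MBC levels were 244, 162 and 61.5 scaled TPM and its PC levels 25.3, 20.4, 32.2 and 28.0. MBC replicate 3 was the lowest of its group but above every PC library. The mean was 156 ± 91.4 (SD, n = 3) in MBCs, 5.89-fold that of 26.5 ± 4.96 (SD, n = 4) in PCs, and the log2 fold change was -2.32 (SE 0.47, limma adjusted p = 0.0146). Without MBC replicate 3 it was -2.88 (limma adjusted p = 0.00123), while without PC replicate 2 it was -2.20 with a limma adjusted p of 0.0506 and was not called. Even so, Btla was the member with the highest median after Cd28 in PCs.

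Lag3, an inhibitory receptor for MHC class II, was low in both groups. It stood at 2.21, 1.26 and 0.356 scaled TPM in MBCs and at 1.24, 2.73, 4.18 and 4.63 in PCs. PC replicate 1 lay inside the MBC range. The log2 fold change was 0.88 (95% interval -0.34 to 2.11, limma adjusted p = 0.358).

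Pdcd1, which encodes PD-1, was at or near the floor throughout. Its deposited values were 0, 0 and 0.25 TPM in MBCs and 0, 0.27, 0.12 and 0.35 TPM in PCs, over the floor in 0 MBC and 2 PC libraries. The groups overlapped, and the exact two-sided permutation test over 35 assignments gave p = 0.486, where the smallest possible is 0.0286. A difference was not detectable at this depth.

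By median level the order in MBCs was Btla (162 scaled TPM), Cd86 (126), Cd83 (115), Icosl (31.5), Cd274 (17.1) and Lag3 (1.26), then Cd28, Ctla4 and Pdcd1. Neighbours in this order overlapped in range except Cd83 with Icosl and Lag3 with Cd28. In PCs the order was Cd28 (55.4), Btla (26.7), Ctla4 (11.4), Cd274 (10.6), Cd83 (8.51), Cd86 (5.31), Icosl (4.09), Lag3 (3.46) and Pdcd1 (0.275). There only Cd28 with Btla, Btla with Ctla4 and Lag3 with Pdcd1 did not overlap.

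T cells express Cd28 and Ctla4, so their markers were set beside these results. Of 16 T cell markers, 13, 12 and 3 were at 0 in MBC libraries and 7, 1, 3 and 0 in PC libraries. Of the 16, 7 were tested, and 2 of these, Cd3e and Trac, were called higher in PCs, with 0 called lower. Over all tested genes 6.41% were called higher. Cd3e and Trac passed the filter through their PC libraries, and the Trac call was lost in 7 of 17 alternatives. Leaving out Cd2, which B cells express, the remaining 15 summed to 2.84 to 7.05 scaled TPM in MBCs and 30.0 (29.95) to 76.4 in PCs. Fewer cells of a type and less RNA per cell cannot be told apart in bulk samples, and the same holds for each gene here.

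Genes of the T cell receptor complex (Cd3d, Cd3e, Cd3g, Trac, Trbc1 and Trbc2) summed to 16.4, 51.2, 32.6 and 59.1 scaled TPM in PC replicates 1 to 4, and to 0, 0 and 2.37 in MBCs. PC replicate 1, with the lowest sum, had 55.6 scaled TPM of Cd28 and the highest Ctla4 level, 16.9. PC replicate 2, with the sum next to the highest, had 55.7 scaled TPM of Cd28, and PC replicate 4, with the highest sum, had 41.9. In PC replicate 1 the 7 T cell markers at 0 were Cd3d, Cd3g, Cd8a, Cd8b1, Trbc1, Zap70 and Thy1. Of the 9 others, Cd3e was at 11.8 scaled TPM there, Cd247 at 11.8 (11.81), Trac at 2.501 and Trbc2 at 2.12. The ratio of Cd28 to Cd3e was 4.72, 3.93, 14.3 and 3.35. The 9 NK cell markers summed to 0, 0 and 0.497 scaled TPM in MBCs and to 6.66 to 24.0 in PCs, where 1 of them was tested and 0 were called. The part of T and NK cells in the receptor results was not tested. Of the 7 follicular helper T cell markers, 3 were tested and 1, Cxcr5, was called lower. Cxcr5 stood at 91.9, 142 and 42.6 scaled TPM in the MBC libraries, where most T cell markers were at or near 0. The other tested markers were not called: Tox2 at a log2 fold change of 1.75 (limma adjusted p = 0.158) and Cd200 at -0.91 (limma adjusted p = 0.278).

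**Figure D3:**
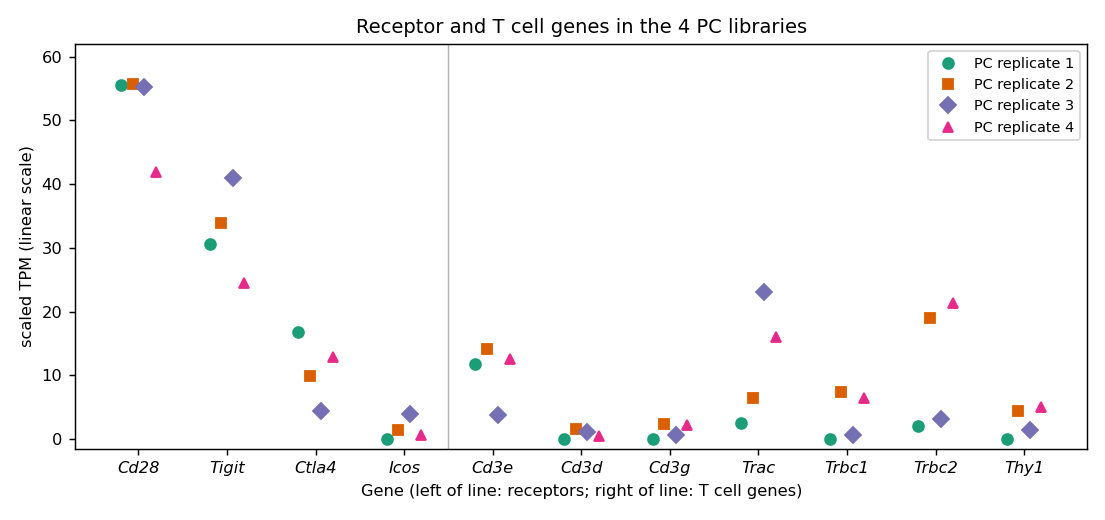
Level in scaled TPM (vertical axis, linear) of 4 receptor genes and 7 T cell genes in the 4 PC libraries, with a symbol per library. Cd28 lies between 41.9 and 55.7 in all 4 libraries. PC replicate 1 (circles) is at 0 for Icos, Cd3d, Cd3g, Trbc1 and Thy1. The same library is at 11.8 for Cd3e, 2.501 for Trac and 2.12 for Trbc2.

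Other receptors of the family and their ligands gave context. Of 9 CD28 family and related inhibitory receptors outside the members, 2 were tested and only Tigit, an inhibitory receptor for the nectin-like protein CD155, was called, having passed the filter through its PC libraries. It stood at 0, 0 and 0.171 scaled TPM in MBCs and at 30.7, 34.0, 40.9 and 24.6 in PCs (4.97 on the log2 scale, SE 0.45, limma adjusted p = 0.000158). Like Cd28 it was lowest in PC replicate 4, and the ratio of Cd28 to Tigit stayed between 1.35 and 1.81. Icos, the receptor of ICOS ligand, was at 0, 0 and 0.078 scaled TPM in MBCs and at 0, 1.49, 3.89 and 0.627 in PCs, and was under the filter.

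Of 8 B7 family ligands outside the members, 7 were found, 4 were tested and only Vsir was called. Vsir, which encodes the inhibitory molecule VISTA, stood at 1.17, 0 and 0.185 scaled TPM in MBCs and at 26.0, 12.7, 14.3 and 5.59 in PCs. It passed the filter through its PC libraries. All PC libraries were above all MBC libraries (log2 fold change 3.34, SE 0.61, limma adjusted p = 0.00849). Vsir thus differed in direction from Cd86 and Icosl.

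Cd80, the other ligand of CD28 and CTLA-4, was at 10.5, 18.1 and 0.283 scaled TPM in MBCs and at 0.425, 3.55, 0.615 and 0.850 in PCs. MBC replicate 3 lay below every PC library. The log2 fold change was -1.64 (SE 0.91, limma adjusted p = 0.303), and -2.75 without MBC replicate 3 (limma adjusted p = 0.0169). Pdcd1lg2, used in the gate, showed the same dependence. It was at 43.3, 24.4 and 2.59 scaled TPM in MBCs and at 0, 0.758, 2.84 and 2.83 in PCs (log2 fold change -2.82, limma adjusted p = 0.0905), and -3.82 by limma without that library (limma adjusted p = 0.0072).

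The partners of BTLA and LAG-3 were also read. Tnfrsf14, which encodes HVEM, stood at 0.368, 0 and 4.62 scaled TPM in MBCs and at 10.8, 1.34, 0.972 and 3.68 in PCs, and the groups overlapped (log2 fold change 1.02, limma adjusted p = 0.481). The overlap rested on MBC replicate 3: the other MBC libraries were below every PC library, and without it the gene was under the filter and had no test. H2-Ab1, a chain of the MHC class II molecule that LAG-3 binds, was high in all libraries, at 1401, 1766 and 1090 scaled TPM in MBCs and 531.5 to 759.5 in PCs (log2 fold change -1.09, limma adjusted p = 0.0699). Fgl1 was listed at 0 in all 7 libraries. Lgals3 was at 0.999, 12.4 and 0.419 scaled TPM in MBCs and 0 to 1.19 in PCs, under the filter. Among 12 ligands of the inhibitory receptors, 8 were tested and 0 were called, with a median log2 fold change of 0.19.

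The called genes among those that act below these receptors were all lower in PCs. Of 23 genes of CD28 signalling, 21 were tested, with a median log2 fold change of -0.85. Of the 21, 0 were called higher, against 6.41% of all tested genes, and 2 were called lower, against 2.14%. Rel, an NF-kappaB subunit, was called lower and stood at 85.1, 72.3 and 49.5 scaled TPM in MBCs and at 11.3, 7.98, 10.4 and 8.74 in PCs (log2 fold change -2.70, SE 0.37, limma adjusted p = 0.00167). The kinases and adaptors that CD28 would engage were thus not called higher beside it. A list of 21 genes is too short to tell 0 called higher from a share of 6.41%.

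Of 12 genes that carry PD-1, CTLA-4 and BTLA signals, 9 were tested and 2 were called lower, against 2.14% of all tested genes. They were the phosphatase genes Ptpn6 (SHP-1) and Inpp5d (SHIP-1), with log2 fold changes of -1.65 each and limma adjusted p-values of 0.0237 and 0.038. Those calls were lost in 7 and 10 of 18 alternatives. Of 5 measured genes of CD83 and CD86 surface turnover, only March1, the ubiquitin ligase that removes CD86 and MHC class II from the surface, was called: 48.1, 72.7 and 34.6 scaled TPM in MBCs and 7.42, 4.06, 6.66 and 7.25 in PCs (log2 fold change -2.81, SE 0.43, limma adjusted p = 0.00302). The ligase and its target Cd86 were therefore lower together. Of 13 costimulators of the TNF family, 2 were tested and Cd40, the receptor for T cell help, was called lower. Cd40 stood at 24.3, 22.3 and 16.1 scaled TPM in MBCs and at 3.93, 2.93, 1.181 and 4.39 in PCs (log2 fold change -2.47, SE 0.50, limma adjusted p = 0.0152). The call was lost in 3 of 18 alternatives. The limma adjusted p was 0.0576 without PC replicate 2, 0.0843 with the replicate block and 0.0978 with the title code block.

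The genes closest in pattern to Cd28 were Bhlha15, Hid1, Sdc1, Tent5c and Chst1, ranked among all tested genes outside the immunoglobulin loci by the mean absolute difference of centred log2(scaled TPM + 1) over the 7 libraries, which ran from 0.114 to 0.315. Bhlha15, a transcription factor gene of secretory cells, stood at 55.3, 58.7, 56.5 and 57.5 scaled TPM in PCs. Sdc1 encodes CD138, the sorting marker. The genes closest to Cd86 were Sorl1, Cd22, Bcl11a, Cr2 and Mta3, with differences of 0.220 to 0.431. Cd22 and Cr2 encode B cell coreceptors. The likeness is a description of 7 libraries in 2 groups.

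Within the more frequent title prefix (2 MBC and 3 PC libraries) the log2 fold changes were -4.23 for Cd86, -3.95 for Cd83, -2.79 for Icosl, 5.74 for Cd28, 3.28 for Ctla4 and -2.91 for Btla, and all 6 stayed called. Lag3 was at 0.38. Without MBC replicate 3, the log2 fold changes were -3.81 for Cd83, -2.70 for Icosl, 5.57 for Cd28, 3.32 for Ctla4 and 0.54 for Lag3, and 2 members were called higher and 4 lower. Calls of Cd86, Cd83 and Cd28 held in 18 of 18 alternatives.

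**Figure D4:**
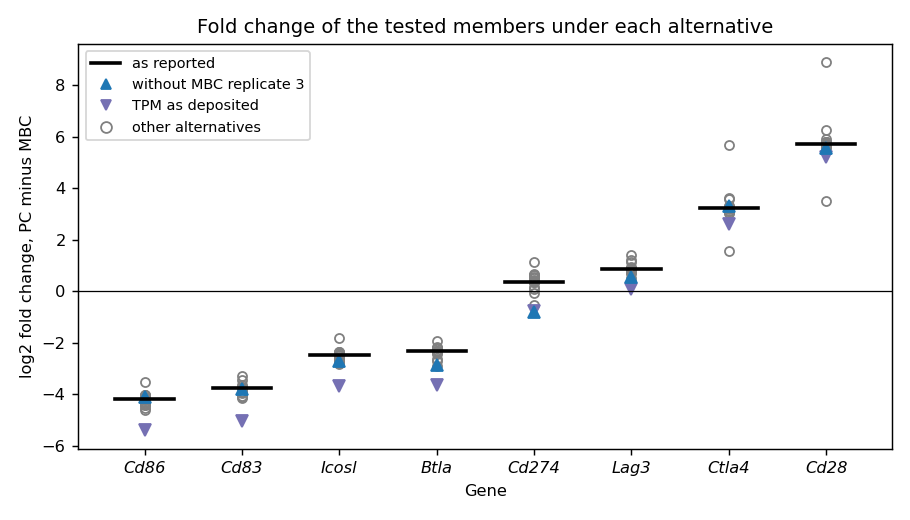
Log2 fold change (vertical axis) of the 8 tested members under the reported setting (bar) and 17 or 18 alternatives (symbols). Cd28 and Ctla4 lie above 0 and Cd86, Cd83, Icosl and Btla below it in every alternative run, and Cd274 crosses 0.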

How the data were processed

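Bulk RNA of 3 MBC and 4 PC sorted samples was measured. The authors deposited TPM (reads per transcript length, scaled to a fixed total), rounded to 2 decimals. The submitters' processing notes name STAR 2.5.2a, RSEM 1.3.0, GRCm38 and a count-based test program, which could not be run on TPM, and the annotation release is not given in the sources used here. Symbols came from GENCODE M21 by gene ID (48349 matched). Values of overlapping or near-identical genes are uncertain. Any 2 libraries differed at 99.3% or more of the genes above 0.

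TPM was divided by each library's median ratio to the geometric mean over 9305 genes above 0 in all libraries. Genes at 1 TPM in 3 libraries (11573) were tested with limma 3.58.1 in R 4.3.3 (pseudocount 1, eBayes with trend, no covariate) with Benjamini-Hochberg adjustment. Pdcd1 was given an exact permutation test. The other steps used scipy 1.17.1, numpy 2.4.6 and pandas 2.3.3 in Python 3.11.15. Depth was estimated from the whole-read steps of low TPM values, a step added after seeing the data: 75.1 to 84.0% of values lay within 0.15 of a whole read, where 30% would by coincidence.

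On simulated data limma recovered 77 of 100 genes changed by 4 on the log2 scale and 29 of 100 changed by 2, and called 5 of 11373 unchanged genes. Same-numbered MBC and PC libraries were checked for shared deviations. The members and gene lists were chosen with earlier results of these data known. Named were all members, called genes of the lists (up to 4 in each direction by fold change), binding partners, the 5 genes most like Cd28 and Cd86, and cell type genes that bear on a member. A gene of the CD28 signalling list is not reported here. Alternatives covered scaling, pseudocount, filter, libraries and blocks.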

Additional observations from a re-analysis of the deposited data

Results flagged for a closer look

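In the PC group, Cd28 in replicate 4 (41.91 scaled TPM) was far from the other 3 libraries, at 55.2 to 55.7. Its gap to the nearest was 0.967 of the group's range, above Dixon's critical value for 4 samples. Cd80 in PC replicate 2 (3.552 scaled TPM) was likewise far from the others, at 0.425 to 0.850, with a ratio of 0.864. Of 26 genes examined in this way, chance flags about 1 in 20, or 1.3. The 3 MBC libraries are too few for this check.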

How the results depend on the processing

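The calls of Cd86, Cd83 and Cd28 held in 18 of 18 alternatives, that of Ctla4 in 17, of Icosl in 16 and of Btla in 15. Log2 fold changes ran from -5.40 to -3.51 for Cd86, -5.02 to -3.29 for Cd83, -3.67 to -1.83 for Icosl, -3.62 to -1.92 for Btla, 3.5 to 8.89 for Cd28 and 1.56 to 5.70 for Ctla4. Cd274 reversed to -0.77 with TPM as deposited and to -0.54 within the more frequent prefix, and lay between -0.82 and 1.12 when libraries were left out in turn. Btla was also lost (adjusted p = 0.0511) with all genes above 0 tested.

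MBC and PC libraries of the same number did not all deviate together (r across genes 0.109, -0.040 and -0.083). Those sharing a title code had r of 0.109, -0.004 and 0.222, the last being the highest of all pairs. Pairs sharing neither ran from -0.176 to 0.152. The numbers and codes were not taken as pairing in the main fit, though these values cannot exclude it. With the replicate block 1 member was called higher and 2 lower, and the adjusted p was 0.0798 for Icosl, 0.0715 for Ctla4 and 0.0693 for Btla. With a title code block Icosl was at 0.0841.

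Over all tested genes, 742 were called higher and 248 lower. The counts were 472 and 3018 with TPM as deposited, 384 and 408 with immunoglobulin genes removed, 437 and 123 with all genes above 0, 390 and 60 with the replicate block, and 434 and 83 with the title code block. Quantile normalization gave 460 lower and the more frequent prefix alone 448 lower. Leaving out libraries in turn gave 456 to 1624 higher and 93 to 881 lower, the most without MBC replicate 3. The cause was not tested. MBC replicates 1 and 2 were the shallowest, which limits Pdcd1 most, and among tested members Cd274 had the widest error (SE 0.92).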
